A study of Mus musculus with 4 samples.

Results

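The RNA of 10 genes used as markers of mast cells was followed in lung ECs after unilateral pneumonectomy (PNX), the removal of 1 lung, after which the other lung grows. The genes were taken by symbol, and all 10 were found among the 24063 gene symbols counted. The cells came from wild-type C57BL6 mice, 8 weeks old and labelled male, and were captured on magnetic beads by their surface CD31. PNX mice were used 7 days after removal of the left lung, and in sham-operated mice the chest was opened without removing lung. Each group had 2 libraries, each from the pooled cells of 2 mice, so a p-value measures at most the spread between 2 such pools. A read was counted for each transcript it overlapped, so 1 transcript, the one counted most often over the 4 libraries, stood for each gene. The counts on these transcripts came to between 41367438 and 50952879 per library. Between the libraries of a group the mean chi-square per gene was 1.74 in sham and 1.51 after PNX where counting noise alone gives about 1. Between libraries of different groups it was 128 and 114. A small p-value thus rests on a spread within groups that was little above counting noise. Each of 12 endothelial marker genes had at least 5527 counts in every library. Against the label, the 44 chromosome Y genes had 0 counts in every library, while Xist had between 29890 and 36875 counts.

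Mast cells are tissue-resident leukocytes that carry granules filled with proteases, histamine and heparin. They are armed through the IgE receptor and depend on the receptor tyrosine kinase Kit. In mice, those of connective tissue hold chymases, tryptases and carboxypeptidase A3, whereas those of mucosa hold mainly the chymases Mcpt1 and Mcpt2. Basophils are circulating cells that share the IgE receptor and histamine synthesis but make the protease Mcpt8. Among the markers, Kit and Hdc are not restricted to mast cells. Kit is also made by capillary ECs of the lung and by hematopoietic progenitors, and Hdc by other myeloid cells.

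After PNX, 4 of the 10 genes were called higher and 0 lower, with an adjusted p under 0.01 and a log2 fold change beyond 1 (quasi-likelihood test of edgeR, Benjamini-Hochberg adjustment over 16208 genes). Over all genes tested, these thresholds called 7.56%, with 5.9% higher and 1.66% lower. The 4 were the tryptase genes Tpsb2 and Tpsab1 and the chymase genes Cma1 and Mcpt4, all of them proteases of the granules. Tpsb2 and Tpsab1 passed the filter on low counts through the PNX libraries alone, so that their direction was given by the filter, and of the other 8 genes 2 were called higher. With no filter on low counts the 4 genes were called as well. On adjusted p alone, 5 genes were higher and 3 lower, against 29.3% and 27.8% of all genes tested. The 5th higher gene was Cpa3, and the 3 lower genes were Kit, Ms4a2 and Hdc. Both PNX libraries lay above both sham libraries in 6 genes and below them in 3, so that 9 did not overlap. Of all genes tested 81.2% did not overlap, 40.8% above and 40.5% below. Over the 10 genes the median log2 fold change came to 0.69, and over all genes tested to 0.00. The median of the 10 includes Tpsb2 and Tpsab1, whose direction was given by the filter. Kit, Ms4a2, Hdc and Mcpt8 had negative values. Genes of few counts were called more often. Among the 4607 genes with a mean under 300 normalized counts, 11.4% were called higher, and 7 of the 10 marker genes were of this kind, including the 4 that were called. In bulk RNA, fewer or more cells of a type cannot be told apart from less or more RNA per cell.

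**Figure D1:**
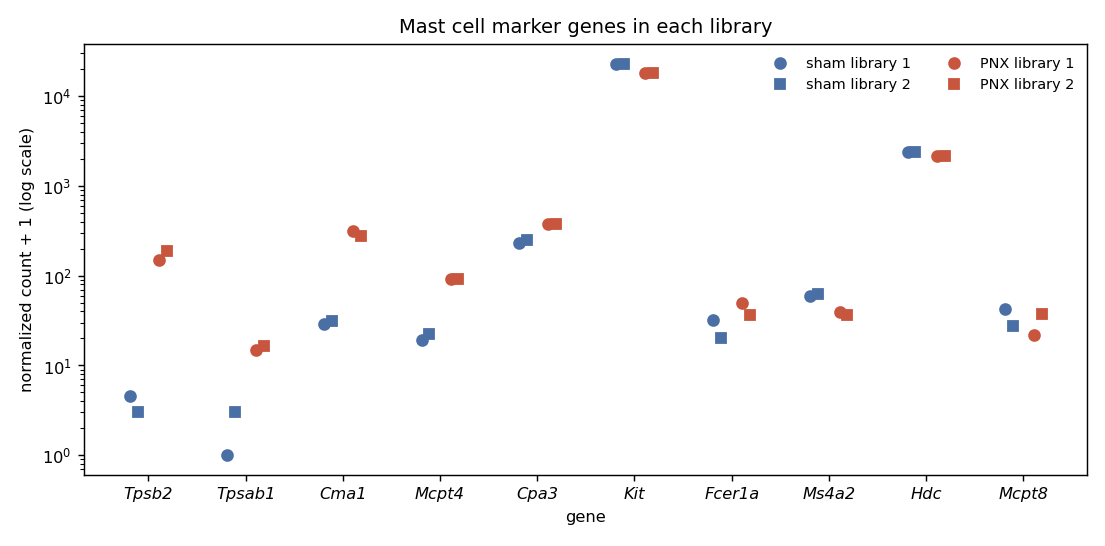
Normalized counts plus 1 (log scale) of the 10 mast cell marker genes in the 2 sham (blue) and 2 PNX (red) libraries, with circles for library 1 and squares for library 2. Tpsb2, Tpsab1, Cma1 and Mcpt4 are apart between the groups, Mcpt8 overlaps, and Kit and Hdc lie far above the other genes.

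Tpsb2 encodes the tryptase mMCP-6, a trypsin-like protease stored in complex with heparin (chromosome 17 from 25366308 to 25368096, mm10). Counts were 4 and 2 in sham and 153 and 167 after PNX. The PNX libraries were far above both sham libraries, which were close to the smallest level that can be detected, 3 counts. Normalized to the mean library size, Tpsb2 had 2.83 ± 1.12 counts in sham and 168 ± 25.3 after PNX (SD, n = 2 each). Its log2 fold change in the edgeR fit was 5.80 with a standard error (SE) of 0.30 and an adjusted p of 1.8e-25, and with no filter on low counts it was 5.80 with an adjusted p of 4.0e-86. The ratio of the summed counts, scaled to library size, was 58.1 with an exact 95% counting interval from 26.4 to 159. Such an interval covers counting error only.

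Tpsab1, the gene of the tryptase mMCP-7, lies next to Tpsb2 on chromosome 17 from 25343245 to 25345562. The strain C57BL/6 is known to carry a splice site mutation in this gene, and RefSeq lists it there as a transcribed pseudogene. Sham libraries held 0 and 2 counts and PNX libraries 14 and 14. The groups did not overlap, although the counts were the lowest of all 10 genes. The scaled ratio of counts was 15.2 (exact 95% counting interval 3.84 to 132), and edgeR gave a log2 fold change of 3.77 with SE 0.75 and an adjusted p of 1.2e-05. With no filter on low counts these were 3.76, 0.85 and 2.4e-05. The size of the change depended on the 2 sham counts. Without the second sham library the log2 fold change was 6.89, and without the first it was 2.77. The longest GENCODE transcripts of these genes shared 0 stretches of 75 bases with transcripts of any other gene.

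Cma1 encodes the chymase mMCP-5, which lies on chromosome 14 from 55941451 to 55944675. Its counts were 31 and 30 in sham and 321 and 249 after PNX. Both PNX libraries were well above both sham libraries, with 29.3 ± 1.77 (SD, n = 2) normalized counts in sham and 296 ± 26.9 (SD, n = 2) after PNX. The log2 fold change in edgeR was 3.34 with SE 0.16 and an adjusted p of 9.7e-28.

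Mcpt4 encodes the chymase mMCP-4, the main chymotrypsin-like enzyme of connective tissue mast cells, in the same gene cluster (chromosome 14 from 56059744 to 56062310). Counts were 20 and 21 in sham and 93 and 82 after PNX. The normalized counts, 18.1 and 21.4 in sham, were 91.4 in both PNX libraries, above both sham libraries. In edgeR the log2 fold change was 2.21 with SE 0.23 and an adjusted p of 9.6e-13. Of the stretches of 75 bases in its transcript, 2.51% were shared with Cma2, a neighbour with 0 counts in every library. For Cma1, 1.67% were shared with the predicted gene Gm48934.

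Cpa3 encodes carboxypeptidase A3, a granule enzyme of mast cells that basophils also make (chromosome 3 from 20215616 to 20242209). It was the highest of the granule proteases in the sham libraries, with 233 and 251 normalized counts against 376 and 372 after PNX. The groups did not overlap, but the change was small beside those of the tryptases and chymases. With a log2 fold change of 0.63, SE 0.090 and an adjusted p of 8.5e-09 in edgeR, Cpa3 rose 1.55-fold and stayed short of the fold threshold.

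Of the other granule proteases, Cma1, Tpsb2 and Mcpt4, all called higher, were set against Cpa3 within each library. Tpsab1 and Mcpt8 were not. For each count of Cpa3 there were 0.121 and 0.122 counts of Cma1 in sham and 0.838 and 0.746 after PNX. The ratio of Tpsb2 to Cpa3 went from 0.0156 and 0.00813 to 0.399 and 0.50. Mcpt4 had 0.0778 and 0.0854 counts per count of Cpa3 in sham and 0.243 and 0.246 after PNX. In each of the 3 ratios the PNX libraries were above the sham libraries. These 3 genes had larger log2 fold changes than Cpa3, so the direction of their ratios was given beforehand. Mcpt8, which did not pass the test, had a log2 fold change of -0.29 against 0.63 for Cpa3. An exact permutation test of 2 libraries against 2 cannot give a two-sided p below 0.333, so these ratios were not tested. Cpa3, Cma1, Mcpt4 and Tpsb2 together held 283 and 305 normalized counts in sham and 934 and 927 after PNX.

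**Figure D2:**
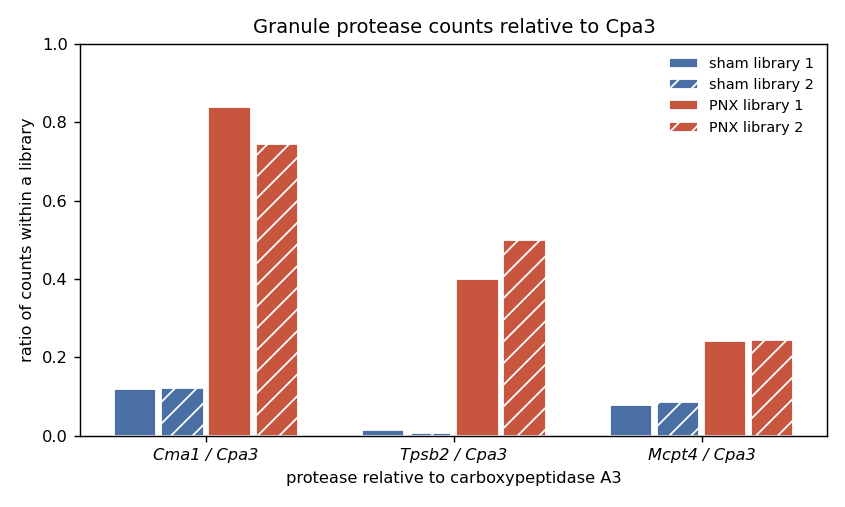
Counts of Cma1, Tpsb2 and Mcpt4 divided by the count of Cpa3 in the same library, for the sham (blue) and PNX (red) libraries, with hatched bars for library 2. The sham bars do not exceed 0.122, and the PNX bars lie between 0.243 and 0.838.

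The sequences before the start sites are shown for the proteases Cma1, Mcpt4 and Cpa3, which rose, and for the IgE receptor gene Fcer1a, which did not pass the test. GATA factors and MITF are known regulators of mast cell genes. The 250 bases before the start of the RefSeq promoter table are given (GRCm38.p6, the assembly of mm10). This start is that of the RefSeq gene in Cma1, Mcpt4 and Kit. It lies 28 bases inside the gene in Cpa3, 3 in Fcer1a, 71 in Ms4a2, 302 in Mcpt8 and 5347 in Hdc. The starts of the counted transcripts were not compared with it. Letters are set in capitals for AGATAA or TGATAA, the motif of GATA factors, on either strand, for CATGTG, an E-box that MITF can bind, on either strand, and for TATAAA between 45 and 15 bases before the start. No 2 of these matches overlap.
Cma1, chr14:55944676-55944925, minus strand: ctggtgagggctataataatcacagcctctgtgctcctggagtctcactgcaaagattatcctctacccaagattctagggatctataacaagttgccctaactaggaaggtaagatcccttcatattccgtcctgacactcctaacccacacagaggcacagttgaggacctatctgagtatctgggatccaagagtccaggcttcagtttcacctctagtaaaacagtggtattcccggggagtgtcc
Mcpt4, chr14:56062311-56062560, minus strand: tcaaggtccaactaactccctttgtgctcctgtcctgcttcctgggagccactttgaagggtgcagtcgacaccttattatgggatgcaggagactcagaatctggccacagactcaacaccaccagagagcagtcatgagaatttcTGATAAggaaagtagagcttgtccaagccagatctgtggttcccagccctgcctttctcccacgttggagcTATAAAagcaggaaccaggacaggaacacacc
Cpa3, chr3:20242182-20242431, minus strand: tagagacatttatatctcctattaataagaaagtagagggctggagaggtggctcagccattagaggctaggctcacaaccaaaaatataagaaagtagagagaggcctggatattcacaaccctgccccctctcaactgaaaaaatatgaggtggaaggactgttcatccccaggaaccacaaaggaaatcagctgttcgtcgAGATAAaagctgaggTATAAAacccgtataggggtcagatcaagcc
Fcer1a, chr1:173227230-173227479, minus strand: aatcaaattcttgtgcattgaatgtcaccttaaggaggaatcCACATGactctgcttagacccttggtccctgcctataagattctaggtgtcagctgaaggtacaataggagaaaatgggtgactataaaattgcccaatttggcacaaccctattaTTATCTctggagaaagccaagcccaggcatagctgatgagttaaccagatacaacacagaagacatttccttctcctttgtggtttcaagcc
RefSeq promoters were found for 8 of the 10 genes. AGATAA or TGATAA was found in 4 of the 8, while 16.6% of 32851 promoters of this length held it. In Mcpt4 it began 103 bases and in Cpa3 46 bases before this start. Ms4a2 held it 3 times and Fcer1a once, and Cma1, Mcpt8, Hdc and Kit did not hold these letters. In Mcpt8 and Hdc all 250 bases lay inside the RefSeq gene, so the 8 are not all sequence before a gene. In Ms4a2 71 bases lay inside it, with the matches 11 and 37 bases before the start among them. CATGTG was found in Fcer1a alone, against 12.3% of all promoters. TATAAA lay 32 bases before the RefSeq start of Mcpt4 and 31 before that of Cpa3, and it was in this position in 2.25% of all promoters.

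Cma1, Mcpt4 and Mcpt8 belong to a cluster of protease genes on chromosome 14 that ends with the granzymes. Among the genes tested from Cma1 to Gzmb, only Cma1 and Mcpt4 were called. Mcpt1 and Mcpt2, the chymases of mucosal mast cells, lie between them. Mcpt1 had 4 and 5 counts in sham and 1 and 3 after PNX, and Mcpt2 had 1 and 0 against 2 and 7, too few to pass the filter on low counts. The scaled ratio of counts of Mcpt2 was 9.80 (exact 95% counting interval 1.36 to 429), with 7 of its 9 PNX counts in 1 library. Mcpt9 and Cma2 had 0 counts in every library, which allows a level of up to 0.0725 CPM (counts scaled to library size) in the shallowest library. Ctsg, the cathepsin G of neutrophils, had 17.5 ± 5.53 and 17.2 ± 0.689 (SD, n = 2) normalized counts and an adjusted p of 0.993. Gzmb, a granzyme of cytotoxic lymphocytes, had 208 ± 15.9 and 191 ± 5.86 (SD, n = 2), with an adjusted p of 0.307 in edgeR.

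**Figure D3:**
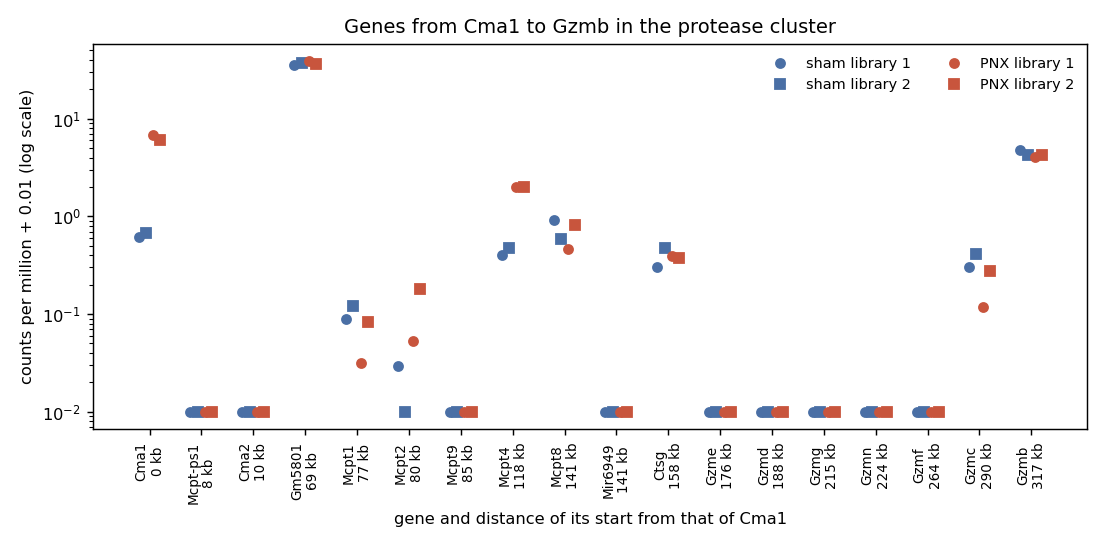
CPM plus 0.01 (log scale) of each gene from Cma1 to Gzmb in the 4 libraries, ordered by distance from the start of Cma1 and with 0 counts drawn at 0.01. Cma1 and Mcpt4 are higher in the PNX libraries (red), and most of the other proteases are at or near 0.

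Mcpt8 encodes mMCP-8, the protease that marks basophils, and lies beside Mcpt4 (chromosome 14 from 56082163 to 56085499). Normalized counts were 41.7 and 26.5 in sham and 20.6 and 36.8 after PNX. It was the only marker gene whose groups overlapped. The log2 fold change was -0.29 with SE 0.29 and an adjusted p of 0.382 in edgeR, and without the first sham or the first PNX library it was 0.09. Among 6 further genes of basophils, 0 were called. Prss34, the basophil protease mMCP-11, had 36 and 32 counts in sham and 36 and 31 after PNX. Cd200r3, an activating receptor of basophils and mast cells, had means of 35.2 and 27.6 normalized counts. Il4, a cytokine of basophils and T cells, had 23.4 and 22.7. Cyp11a1, a steroid enzyme that basophils make, had the largest change (log2 fold change -0.48, adjusted p = 0.0218 in edgeR). The integrin Itga2 had the highest counts and rose from 2338 to 2715. Il3ra, the receptor of interleukin 3, rose from 1196 to 1639 normalized counts, short of the fold threshold.

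The IgE receptor consists of a binding chain (Fcer1a), a signal-amplifying chain (Ms4a2) and the shared signalling chain Fcer1g. Fcer1a, on chromosome 1 from 173221269 to 173227232, had 30.8 and 19.4 normalized counts in sham and 49.1 and 35.7 after PNX. Although the groups did not overlap, the difference did not pass the test (log2 fold change 0.75 with SE 0.27, adjusted p = 0.0133 in edgeR). Without the first sham library it was 1.14 with an adjusted p of 0.00600, and with the second sham or the first PNX library left out it was 0.47 or 0.49.

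Ms4a2, on chromosome 19 from 11615517 to 11623790, had 58.9 and 61.2 normalized counts in sham and 38.3 and 35.7 after PNX. The PNX libraries were below the sham libraries, and in edgeR Ms4a2 fell by 0.69 on the log2 scale (SE 0.22, adjusted p = 0.00514). This pass was lost with any 1 library left out, with adjusted p between 0.0178 and 0.0481, in the Wald test of DESeq2 (adjusted p = 0.0925) and with the counts scaled to endothelial genes (adjusted p = 0.0683). The sum of Mcpt8, Fcer1a and Ms4a2 lay between 107 and 131 normalized counts in sham and was 108 in both PNX libraries.

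Kit, the receptor of stem cell factor, was by far the most abundant of the 10 genes (chromosome 5 from 75574987 to 75656722). It had 23153 and 23037 normalized counts in sham against 18393 and 18129 after PNX. Kit fell by 0.34 on the log2 scale, with SE 0.019 and an adjusted p of 2.7e-24 in edgeR. The groups did not overlap and the libraries of a group lay close together. On the deposited FPKM scale, which takes transcript length into account, Kit stood at 60.6 ± 0.194 in sham and 48.2 ± 0.577 after PNX (SD, n = 2). In sham this level was 26.8 times that of Cpa3. Its direction was opposite to that of the granule proteases.

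Markers of ECs moved in the direction of Kit. Of 12 endothelial genes, 10 were lower and 1 higher on adjusted p, with a median log2 fold change of -0.25. Of all genes tested, 27.8% were lower and 29.3% higher on adjusted p alone. The sum of the 12 genes lay between 599055 and 605869 normalized counts in sham and between 504203 and 506884 after PNX. Of 5 genes of general capillary ECs, 4 were lower and 1 higher, with a median of -0.64 and sums of 244590 to 244664 against 182002 to 182539. Ptprb had the largest change, a log2 fold change of -0.73. Plvap, which forms the diaphragms of capillaries, and Gpihbp1, the capillary anchor of lipoprotein lipase, had -0.65 and -0.64. Kit equalled 3.86% and 3.80% of the sum of the 12 endothelial genes in sham and 3.65% and 3.58% after PNX. When the counts were scaled to these 12 genes, the median of all genes tested moved to 0.25, and the log2 fold change of Kit was -0.09 with an adjusted p of 0.000187 in edgeR. Aerocytes, the other capillary ECs of the lung, had 3 of their 6 genes higher and 3 lower on adjusted p. The part of the capillary ECs in the fall of Kit was not tested. Markers of melanocytes, another cell type that needs Kit, were at or near 0 apart from Pmel (260 and 221 normalized counts). Tyrp1 had 0 counts in every library, Tyr and Dct had at most 3 and Mlana had between 5 and 14.

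Hdc, histidine decarboxylase, makes histamine (chromosome 2 from 126593659 to 126624025). It had 2404 and 2375 normalized counts in sham and 2176 and 2134 after PNX. Hdc fell by 0.15 on the log2 scale, with SE 0.035 and an adjusted p of 0.000198 in edgeR, and the groups did not overlap. The direction turned when counts were scaled to the 12 endothelial genes (log2 fold change 0.10, adjusted p = 0.0109), and DESeq2 gave an adjusted p of 0.0127. Of 7 genes for histamine receptors and for the removal of histamine, 5 were tested and 0 called. Aoc1, the diamine oxidase that degrades histamine, had a log2 fold change of -0.69 and the histamine transporter Slc22a3 one of -0.30, both with an adjusted p under 0.01. Hnmt, the histamine methyltransferase, had -0.28. The receptor Hrh2 had 39.9 normalized counts in sham and 60.2 after PNX, with an adjusted p of 0.0189 in edgeR. Hrh1 had 33.2 and 46.0, with an adjusted p of 0.0757.

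**Figure D4:**
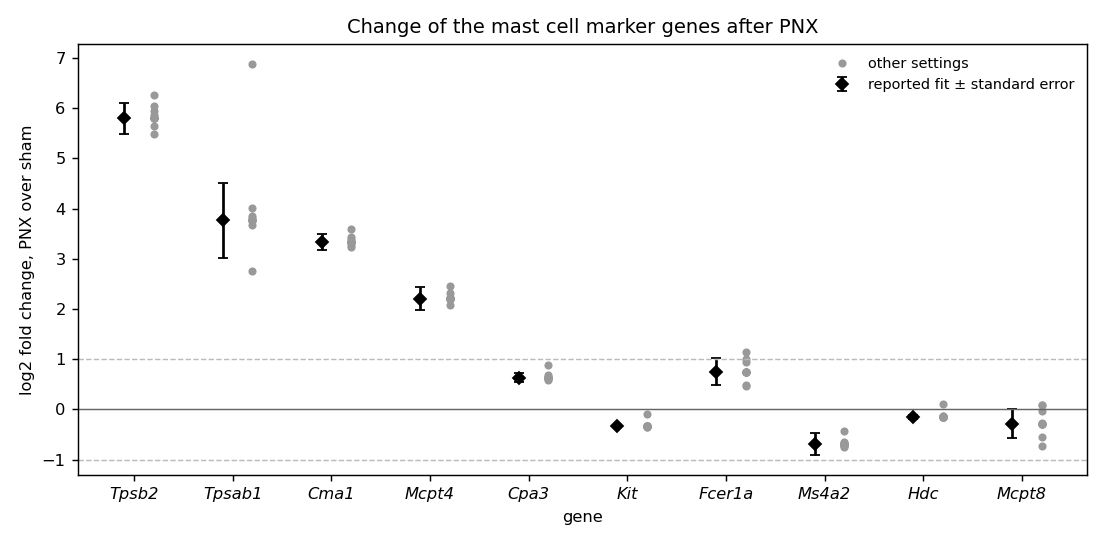
Log2 fold change (PNX over sham) of each mast cell marker gene, with black diamonds and bars for the reported fit and its standard error and grey points for the other settings. The dashed lines mark the fold threshold. The 4 called genes stay above 1 in each setting drawn, and Hdc and Mcpt8 have points on both sides of 0.

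Per length, Kit (60.6 FPKM) and Hdc (13.5 ± 0.112) were the most abundant marker genes in the sham libraries, followed by Cpa3 (2.26 ± 0.119, SD, n = 2). Mcpt8, Cma1, Fcer1a, Ms4a2 and Mcpt4 followed between 0.271 and 0.553 FPKM. Mcpt8 at 0.553 ± 0.174 lay above Cma1 at 0.370 ± 0.0224 in both libraries, while the libraries of Fcer1a (0.332 ± 0.107) overlapped with those of Cma1, Ms4a2 and Mcpt4. Tpsb2 (0.0353 ± 0.0140) and Tpsab1 (0.0116 ± 0.0164) came last. After PNX the order below Kit and Hdc was Cma1 (3.76 ± 0.348), Cpa3 (3.52 ± 0.0342), Tpsb2 (2.11 ± 0.314) and Mcpt4 (1.26 ± 0.00243), of which Cma1 and Cpa3 were within their spread. Fcer1a, Mcpt8, Ms4a2 and Tpsab1 were between 0.168 and 0.565 FPKM. Cma1 went from the 5th to the 3rd place and Tpsb2 from the 9th to the 5th.

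A further list of 20 genes of mast cell granules, lipid mediators and surface receptors had 12 genes tested, of which 2 were called higher and 0 lower. Tph1, the enzyme that starts serotonin synthesis, had 2 and 1 counts in sham and 32 and 33 after PNX. It too passed the filter through the PNX libraries alone. The log2 fold change was 4.45 with SE 0.54, with no filter its adjusted p in edgeR was 6.6e-14, and the scaled ratio of counts was 23.6 (exact 95% counting interval 7.72 to 117). Hpgds, the prostaglandin D2 synthase of mast cells and macrophages, rose from 64.4 to 170 normalized counts, a log2 fold change of 1.40. Cd63, a membrane protein of granules and other vesicles, rose from 2859 to 5256 (0.88), and the leukotriene enzymes Ltc4s and Alox5ap had 0.69 and 0.68, below the fold threshold. Srgn, the proteoglycan of the granules that all leukocytes and ECs share, had 14960 and 16746 normalized counts. Slc18a2, which loads histamine into granules, had 194 and 180 (log2 fold change -0.11, not past the test). The receptor Mrgprb1 had 0 and 1 counts in sham and 20 and 8 after PNX. It missed the filter on low counts, and its scaled ratio was 30.5 (exact 95% counting interval 5.04 to 1246). For Mrgprb2, the receptor through which basic peptides activate connective tissue mast cells, the counts were 2 and 0 against 5 and 3, and the interval of the ratio, 0.869 to 42.1, included 1.

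Signalling from the IgE receptor had 15 genes in its list, of which 0 were called. On adjusted p alone 9 were higher and 4 lower, against 29.3% and 27.8% of all genes tested, with a median log2 fold change of 0.14. Fcer1g rose from 2327 to 3627 normalized counts (0.64), and Lat2, an adaptor of mast cells and B cells, had 0.73. Its relative Lat, an adaptor of T cells and mast cells, had -0.78, and Grap2, an adaptor best known in T cells, had -0.65. Lyn (10525 and 11644 normalized counts) and Plcg1 (13017 and 10164) were the most abundant genes in the list.

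Of 18 growth and lineage factors of mast cells, 16 were tested and 0 called. Kitl, the stem cell factor that binds Kit, fell by 0.19 on the log2 scale, from 28515 to 24988 normalized counts. Gata2, a factor of mast cells, progenitors and ECs, fell by 0.63, from 15135 to 9790. Gata1, which is restricted to fewer blood lineages, had 37.3 and 47.3 (log2 fold change 0.35, adjusted p = 0.20 in edgeR). Mitf rose by 0.27 on the log2 scale. Il13, a cytokine of type 2 cells, had 24.2 and 44.6 normalized counts (log2 fold change 0.88, adjusted p = 0.00297 in edgeR). Csf2rb2, a receptor chain for interleukin 3, and the epithelial cytokine Tslp had log2 fold changes of 0.49 and 0.48. Il9 had 0 counts in every library and Il3 had 0 in sham and 2 in each PNX library.

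**Figure D5:**
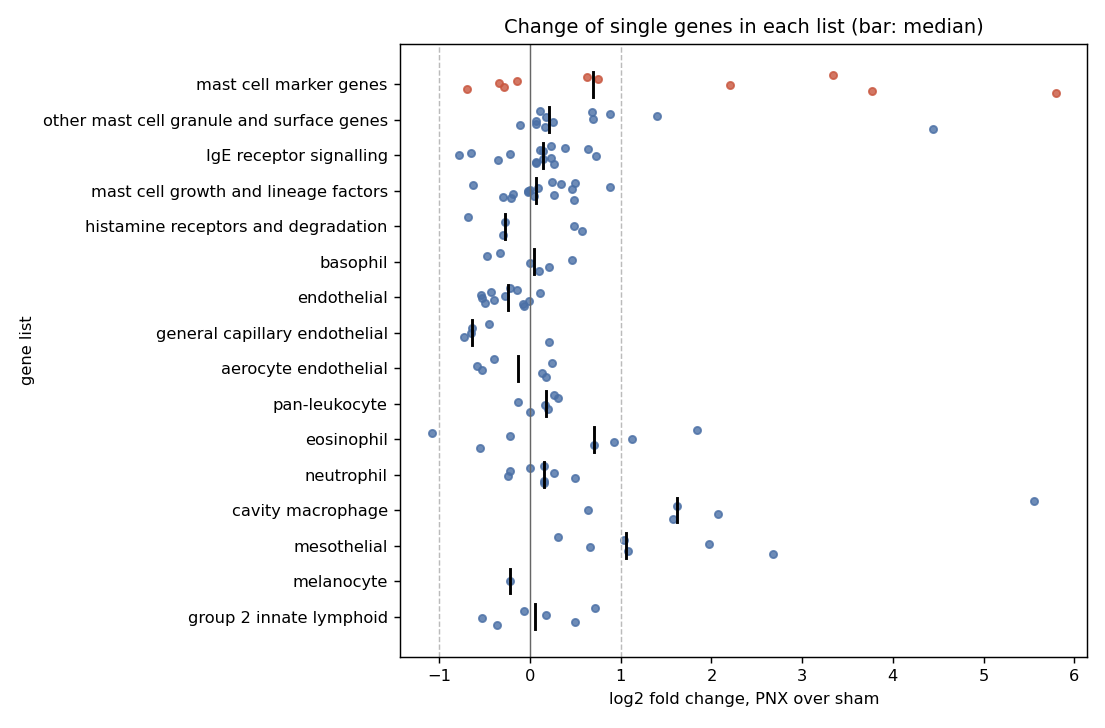
Log2 fold change (PNX over sham) of each gene tested in the mast cell marker genes (red) and in the lists of related genes and of other cell types (blue), with a black bar at each median and dashed lines at the fold threshold. The cavity macrophage and mesothelial lists have the highest medians, at 1.62 and 1.06.

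Markers of some other cells moved along with the granule proteases. Of 5 genes of cavity macrophages, the macrophages of the pleural and peritoneal space, 4 were called higher and 0 were at 0, and their sum was 2305 and 2352 normalized counts in sham and 8402 and 8481 after PNX. Cd5l, a secreted protein of tissue macrophages, rose by 5.55 on the log2 scale, from 58.7 to 2769.7 normalized counts. The lubricin gene Prg4, the coagulation factor gene F5 and the phosphatidylserine receptor gene Timd4 rose by 2.07, 1.62 and 1.58. Of 6 mesothelial genes, which mark the lining of the pleura, 4 were called higher and 0 were at 0, with sums of 9707 to 9728 in sham and 22012 to 22122 after PNX. These were Wt1, Msln, Upk3b and Lrrn4, with log2 fold changes of 2.68, 1.97, 1.08 and 1.03. Mesothelial Wt1 was also among the 5 genes whose profile over the 4 libraries was nearest to the median profile of Tpsb2, Cma1, Mcpt4 and Cpa3. By Euclidean distance of centred log2 normalized counts, over 15357 genes, these were Rad51ap1 (0.0731), 4933413G19Rik (0.0872), Serpinf1 (0.101), Clhc1 (0.106) and Wt1 (0.114). Their log2 fold changes lay between 2.68 and 2.81, while those of the 4 proteases were 5.80, 3.34, 2.21 and 0.63. The ranking thus picked genes by the size of their change and cannot link them to a cell type. In the 7 eosinophil genes 2 were called higher and 1 lower. On adjusted p alone 4 of them were higher and 3 lower, against 29.3% and 27.8% of all genes tested. Sums were 10510 and 10775 in sham and 8441 and 8178 after PNX. The 3 genes with the highest counts, Ear2, Ear1 and Siglecf, fell and set the direction of the sum. The eotaxin receptor Ccr3 rose by 1.84 on the log2 scale and the ribonuclease gene Ear6 by 1.13, while its relative Ear1 fell by 1.09. Prg2 and Epx rose by 0.71 and 0.93, short of the fold threshold. No gene was called among 8 of neutrophils, 6 of all leukocytes and 6 of group 2 innate lymphoid cells. The pan-leukocyte sum was 55849 and 55934 in sham and 60434 and 61255 after PNX. The part of these other cells in the rise of the granule proteases was not tested.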

How the data were processed

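Polyadenylated RNA of mouse lung ECs was sequenced as paired ends in 2 sham and 2 PNX libraries. The authors deposited whole-number counts per RefSeq transcript of mm10 without normalization, together with FPKM and TPM values per transcript. The submitters' processing notes name STAR as the aligner, and the counting program is not given in the sources used here. The deposited FPKM divides by transcript length and by the counts summed over all transcripts. It served to compare levels between genes, and the deposited TPM was not used.

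Counts of 1 transcript per symbol were tested with edgeR 4.0.16 (R 4.3.3), with filterByExpr (16208 genes kept), TMM factors between 0.998 and 1.00 and the quasi-likelihood test without covariates. Called genes had an adjusted p under 0.01 (Benjamini-Hochberg) and a log2 fold change beyond 1, and "rose" or "fell" needed an adjusted p under 0.01. The standard error is the size of the log2 fold change divided by the square root of F. Alternatives were other scalings (DESeq2 size factors, library size, 12 endothelial genes), other filters, the Wald test of DESeq2 1.42.0, a replicate block, sums over transcripts, no fold threshold and each library left out. The fits were tested on simulated data. Depth sets a smallest detectable level, 3 counts, of 0.0589 to 0.0725 CPM.

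The marker genes and gene lists were chosen with earlier results of these data known. The text names all 10 marker genes and, of each list, those called. For the lists of mast cell and basophil biology it also names the largest changes and highest counts. Of the capillary EC and melanocyte lists it names some genes that were not called. The genes named from the protease cluster, genes of few counts, Alox5ap, Slc18a2, Gata1, Mitf, Mlana, Prg2, Epx, Ear2, Siglecf and the limit of 300 normalized counts were chosen after their values were seen. Siglecf was read from the row Siglec5, which carries its RefSeq accession. Motifs were searched in the RefSeq sequence of 250 bases before each start.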

Additional observations from a re-analysis of the deposited data

How the results depend on the processing

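The calls of Tpsb2, Cma1 and Mcpt4 were kept in each of 12 alternatives and that of Tpsab1 in 10. Over these the log2 fold change ranged from 5.48 to 6.27 for Tpsb2, from 3.24 to 3.59 for Cma1, from 2.09 to 2.46 for Mcpt4 and from 2.77 to 6.89 for Tpsab1. DESeq2 gave no adjusted p for Tpsab1, and a required mean of 50 counts removed Tpsab1, Fcer1a, Ms4a2 and Mcpt8 from the test. With 1 library left out, the lone library of a group is assumed to vary like the other group. Then Fcer1a ranged from 0.47 to 1.14 and was called without the first sham library, and Mcpt8 ranged from -0.74 to 0.09 (it was 0.0934 without the first PNX library and 0.0899 without the first sham library, both against the sign of the full data), and these genes had between 19 and 50 counts per library. Scaling to 12 endothelial marker genes raised Fcer1a to 1.00 (called), turned Hdc to 0.10 and lowered the genes called lower from 269 to 86, while 1313 were higher in place of 957. A required mean of 50 counts left 160 lower genes because fewer genes were tested. Without the threshold on fold change, 4745 genes were higher and 4513 lower, and 3 marker genes were lower. The replicate numbers are shared by different mice, and the correlation of the differences between numbers in sham and PNX was 0.02. With the replicate number as a block 4 marker genes were higher, Tpsb2 had a log2 fold change of 5.80 and 957 genes were higher and 272 lower, so that the block changed no call of a marker gene, although the adjusted p of Fcer1a was 0.00899. Of 155 values of 13 other genes named from the lists, 152 kept their call and 3 lost it with the direction unchanged, for Ear1 with endothelial scaling (-0.83) and for Lrrn4 with 1 library left out (0.97 and 1.00).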
